A study of Mus musculus with 14 samples.

Results

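Accessible chromatin was compared between 1398M1 and 1399M4, a pair of mouse small cell lung cancer lines that share genotype and tissue of origin. Both lines carried the RPR2;Nfibf/f genotype and came from liver metastases, and each had 2 ATAC-seq libraries, so the comparison used 4 of the 14 libraries and 2 of the 7 lines of the series. In mouse models of this cancer, RPR2 denotes animals whose tumors lose Rbl2 together with Rb1 and Trp53, all tumor suppressor genes, and f/f marks a floxed allele, here of Nfib. All 4 libraries therefore share every allele the labels name, and no control without them enters the comparison. The labels do not give the Cre, do not say whether Nfib was deleted, and do not tell separate cultures from repeat libraries of 1 culture. Each metastasis is represented by 1 line of suspension cells grown in DMEM with serum, so line, animal and metastasis cannot be told apart. The other lines were 1398P2 and 1399P1 (RPR2;Nfibf/f, lung tumors), 1373M1 (RPR2, liver metastasis), and 12N1G and N2N1G (RPR2, LN metastases).

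ATAC-seq uses a transposase that inserts sequencing adapters where DNA is not covered by nucleosomes, so its peaks mark promoters, enhancers and other bound elements. Small cell lung cancer is a neuroendocrine tumor that expresses neuronal genes and spreads early to the liver. NFIB is a transcription factor known for widening chromatin accessibility in metastases of this tumor, and tumors without it are known to metastasize as well. How far 2 metastases of this genotype differ from each other is the question addressed here.

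Peak intervals of the 4 libraries on chromosomes 1 to 19 and X were merged where they overlapped by at least 1 bp, which gave 120504 regions. A region was called open in a line when both of its libraries had a peak there and closed when neither had. The libraries of 1398M1 held 67712 and 75733 peaks, and those of 1399M4 held 77332 and 74433. Depth was read from the lowest local background of each peak list, its floor, which was 0.752 and 0.988 fragments per bp in 1398M1 and 0.999 and 0.637 in 1399M4. Neither line was the deeper one in both libraries. Absence of a peak means that none was called at that depth.

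The cells of both lines carried open chromatin at the starts of the neuroendocrine genes. All 20 genes of that list, among them the transcription factor gene Insm1 and the secretory granule gene Chga, had a peak within 1 kb of a start in each of the 4 libraries. Their summed regions were 74 and 82 in 1398M1 and 96 and 86 in 1399M4. Of all 21631 protein-coding genes 12965 (59.9%) had such a peak in all 4 libraries, as did all 16 MHC class I presentation genes. An open start alone thus does not mark a cell type. Starts of hepatocyte markers had a peak for 2 and 3 of 14 genes in 1398M1 and 4 and 4 in 1399M4, and Alb and Afp, which encode the main serum proteins of adult and fetal liver, had none in any library. Summed regions of that list were 20 and 23 against 28 and 26. Of 14 lymphocyte and myeloid markers 3 had an open start in every library, with 25 and 29 summed regions in 1398M1 and 38 and 32 in 1399M4, and Ptprc, the pan-leukocyte phosphatase, had none. Fibroblast and endothelial markers had 1 to 3 open starts of 12, with 23 and 35 against 35 and 34 regions. Lung epithelial markers had 9 and 8 open starts of 12 in 1398M1 and 7 and 6 in 1399M4, with 28 and 27 against 29 and 28 regions. In the neuroendocrine, the hepatocyte and the lymphocyte and myeloid lists both 1399M4 libraries lay above both 1398M1 libraries. The part of these markers in the differences given next was not tested.

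Under the 1 bp rule, regions open in both metastases were about as many as those open in only 1 of them. Of the 72400 regions that were open in at least 1 line and open or closed in the other, 36222 (50.0%) were open in both, 17612 (24.3%) in 1398M1 only and 18566 (25.6%) in 1399M4 only. These line-only regions made up 14.6% and 15.4% of all merged regions. A further 48104 regions had a peak in 1 library of a line and not in the other, or in no pair of libraries, and were left unclassed. The balance depended on the rule. With 50% of a merged region required to be covered, 26582 regions were open in both lines, 19197 in 1398M1 only and 18566 in 1399M4 only. Without replicate 1 of 1398M1 the 1398M1-only count was 28296, and without replicate 2 of 1399M4 the 1399M4-only count was 29255, since a single library then sufficed to call a region open.

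Overlap of the peak lists was smaller between the lines than between replicates. The Jaccard index, the shared bases divided by all bases covered by either list, was 0.651 between the libraries of 1398M1 and 0.624 between those of 1399M4. The 4 pairs of libraries across the lines ranged from 0.390 to 0.432 with a mean of 0.417, so both replicate values lay above all of them. With 2 libraries against 2 an exact permutation test cannot go below p = 0.333, and none is given. By mean Jaccard index this pair ranked 12 of the 15 pairs of lines without 1398P2, whose replicate 2 held only 33519 peaks. Line 1398M1 had a higher mean index with the lung tumor line 1399P1 (0.506) and with the RPR2 liver metastasis line 1373M1 (0.490) than with 1399M4. Among these lines 1399M4 had its highest index with 1399P1 (0.459), and 0.385 with 1373M1.

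**Figure D1:**
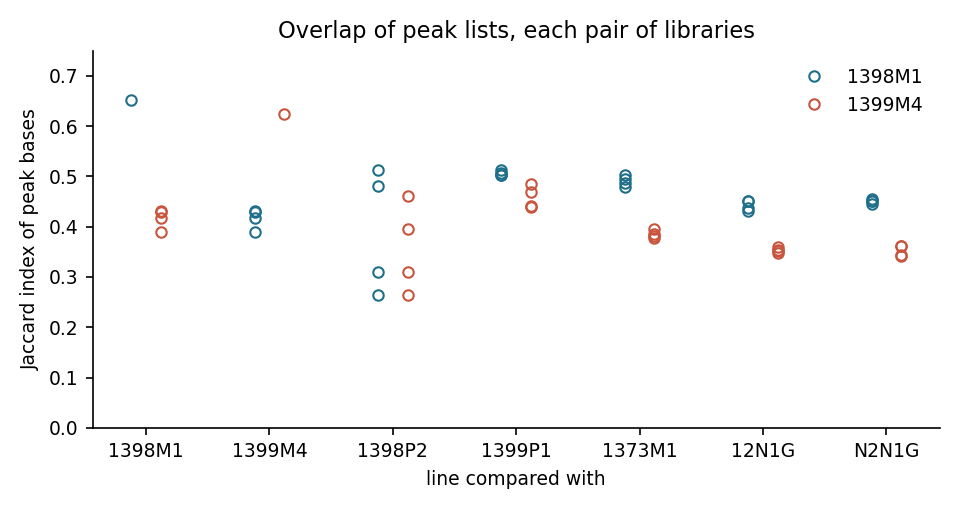
Jaccard index of peak bases (y axis) for each library of 1398M1 (blue) and 1399M4 (red) with each library of the line on the x axis; points are pairs of libraries. Replicates of 1398M1 (0.651) and of 1399M4 (0.624) lie above all pairs across the 2 lines (0.390 to 0.432), and 1398M1 lies above 1399M4 against 1373M1.

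The regions that differed lay mostly away from gene starts. Of the regions open in both lines 34.2% lay within 1 kb of the start of a protein-coding gene, against 4.36% of the 1398M1-only and 3.28% of the 1399M4-only regions. A gene body held 47.1% of the 1398M1-only and 52.8% of the 1399M4-only regions, and 48.5% and 44.0% lay between genes. Line-only regions were also narrower, with median widths of 479 bp (1398M1) and 379 bp (1399M4) against 772 bp for shared regions. A shared region joins peaks of 4 libraries and a line-only region those of 2, so part of this follows from the merge. Median peak widths were 421 and 474 bp in the libraries of 1398M1 and 414 and 336 bp in those of 1399M4. The authors' fold enrichment, ranked within each library, placed the median line-only region at the 43.5th (1398M1) and 44.0th (1399M4) percentile and the median shared region at the 65.7th. Even so, 463 regions of 1398M1 and 592 of 1399M4 had a percentile in the top 10% when averaged over the 2 libraries of their line. None of them had a peak in either library of the other line.

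The strongest of these regions, by the authors' fold enrichment ranked within each library, are given with their peaks in the other lines. They were chosen among line-only regions, so the lack of a peak in the other metastasis follows from the choice. For 1398M1 they were chr9:53174713-53175206 inside Ddx10, an RNA helicase gene, chr11:28817306-28817993, 35161 bp from Efemp1, a matrix glycoprotein gene, and chr1:92289466-92290144, 93764 bp from Hdac4, a histone deacetylase gene. Their mean fold percentiles were 99.7, 99.7 and 99.6, and all 3 had a peak in each of the 10 libraries of the other lines. Among the 7 lines these 3 sites were thus closed in 1399M4 alone. For 1399M4 the strongest were chr6:146776064-146776962 inside Stk38l, a kinase gene of the Hippo pathway family, chr1:131400849-131401231 inside Srgap2, a regulator of neuronal migration, and chr12:4259035-4259494 inside Ncoa1, a nuclear receptor coactivator gene. Their percentiles were 99.9, 99.8 and 99.7. The Stk38l site had a peak in both libraries of 1399P1 and in all 6 RPR2 libraries, whereas the Srgap2 and Ncoa1 sites had a peak in both libraries of 1399P1, in replicate 1 of 1398P2 and in no RPR2 library. Positions are 1-based on GRCm38.

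Line 1398M1 shared more of its line-only regions with the rest of the series than 1399M4 did. Of the 1398M1-only regions 44.9% were open in the RPR2 line 1373M1, 39.9% in 12N1G and 40.4% in N2N1G, against 10.5%, 9.47% and 8.96% of the 1399M4-only regions. In the Nfibf/f lung tumor line 1399P1 the shares were 45.1% and 29.3%, and in 1398P2, with its thin second library, 13.9% and 6.17%. No other library had a peak at 2050 (11.6%) of the 1398M1-only and at 7100 (38.2%) of the 1399M4-only regions. Another 4610 (26.2%) of the 1398M1-only regions were open in all 3 RPR2 lines, against 596 (3.21%) of the 1399M4-only regions. At 13239 (71.3%) of the 1399M4-only regions none of the 6 RPR2 libraries had a peak, and 3293 of these were open in 1399P1. Of the regions shared by both metastases 68.4% were open in all 3 RPR2 lines. These shares describe overlaps of peak lists and carry no test.

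**Figure D2:**
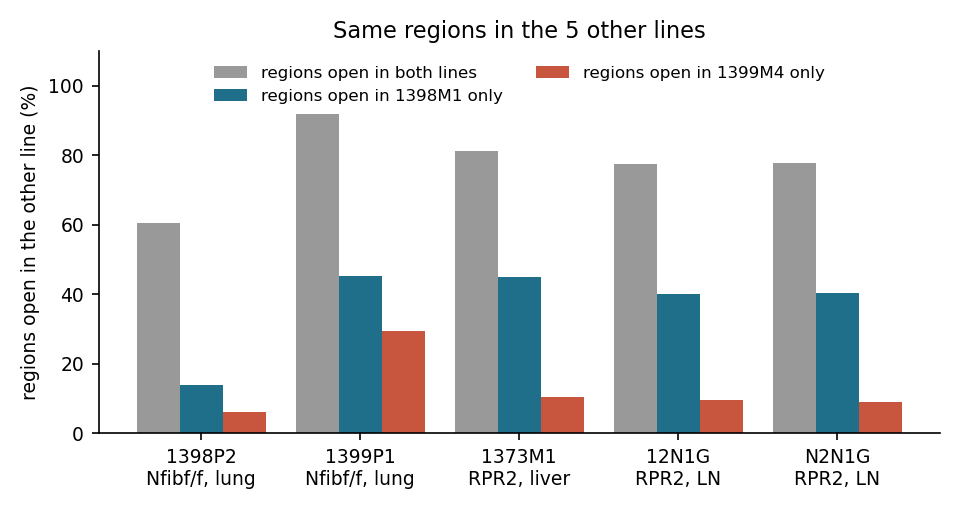
Share of regions (y axis, %) open in each of the 5 other lines, for regions open in both metastases (grey), in 1398M1 only (blue) and in 1399M4 only (red). In the 3 RPR2 lines the blue bars stand at 39.9% to 44.9% and the red bars at 8.96% to 10.5%.

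The largest imbalance by chromosome was on chromosome 12. On it 36.5% of the classed regions were open in 1398M1 only and 17.6% in 1399M4 only, whereas on the other chromosomes the shares ran from 19.7% to 27.6% and from 21.6% to 30.2%. Chromosome 12 held 3.41% and 3.43% of the peaks in the libraries of 1399M4, below all 12 other libraries of the series (4.11% to 4.60%). The 1398M1-only share was the higher in all 10 Mb segments with at least 100 classed regions but that from 20 to 30 Mb (24.7% and 27.4%). Between 90 and 100 Mb 48.8% of the classed regions were open in 1398M1 only and 14% in 1399M4 only, and between 30 and 40 Mb the shares were 41.0% and 14%. Chromosome 5 departed the other way, with 7.06% and 6.89% of the peaks of 1399M4, above the 12 other libraries (6.0% to 6.42%). Line 1399M4 also lay above all other libraries on chromosomes 14, 15, 16 and 19 and below them on 9, and 1398M1 above them on 12 and below them on 11. Copy number was not measured, and whether it differs between the lines was not tested.

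The most one-sided stretch in favor of 1399M4 was the distal end of chromosome 4. From 150 to 160 Mb 209 regions were open in 1399M4 only and 40 in 1398M1 only, or 46.1% and 8.83% of those classed. At Camta1 and Rere, both in this stretch, the local background in 1399M4 was 1.7 and 1.9 times (Camta1) and 2.2 and 2.3 times (Rere) the floor, and in 1398M1 1.0 to 1.3 times. Mycl, the MYC family oncogene on the same chromosome, lay in raised background in both lines, at 74.7 and 77.9 times the floor in 1398M1 and 59.4 and 55.9 times in 1399M4. At Macf1, which encodes a protein linking actin and microtubules, the background was 11.2 and 10.3 times the floor in 1399M4 and 1.1 and 1.2 times in 1398M1.

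**Figure D3:**
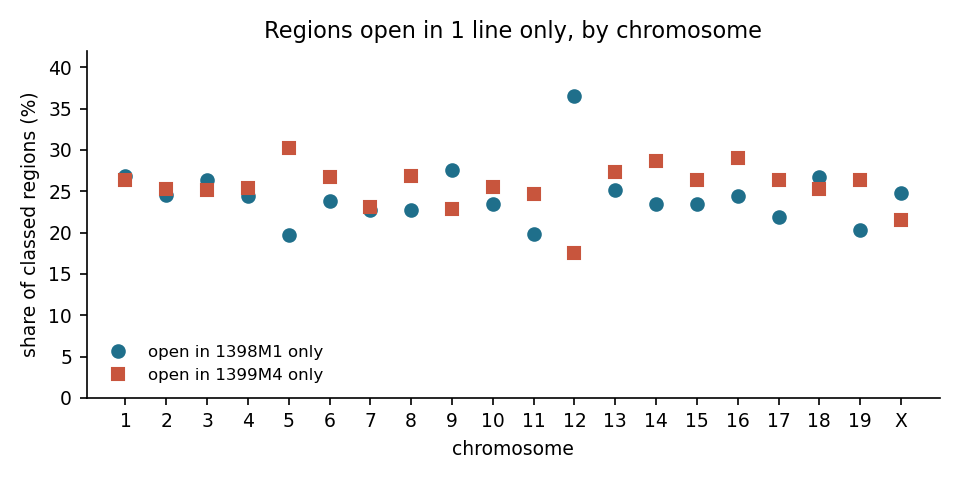
Share of classed regions (y axis, %) open in 1398M1 only (blue circles) and in 1399M4 only (red squares) on each chromosome (x axis). Chromosome 12 stands apart at 36.5% and 17.6%, and chromosome 5 is the highest for 1399M4 at 30.2%.

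Line-only regions also came in unbroken runs. The longest was a run of 23 consecutive classed regions open in 1398M1 only at chr11:24569761-26072743, a stretch that touched no protein-coding gene. Next came 19 in a row over Kirrel3, an adhesion molecule gene of synapse formation (chr9:34679469-34996253), and 16 between and over Bmp2, a bone morphogenetic protein gene, and Hao1, a peroxisomal oxidase gene (chr2:133554279-134528435). Of the 19 Kirrel3 regions 13 were open in 1373M1, 9 in 12N1G, 8 in N2N1G and 8 in 1399P1. A run of 14 spanned Begain, a postsynaptic density gene, and the imprinted genes Dlk1 and Rtl1 on chromosome 12 (chr12:109052976-109720636). For 1399M4 the longest run held 17 regions on the X chromosome over Amot, Htr2c and a cluster of related genes (chrX:145504855-150162438). Others held 14 regions each, over the Mup cluster of major urinary protein genes, over Adamtsl1, over the keratin-associated protein genes and over Fshr, the receptor of follicle-stimulating hormone. The Mup and keratin-associated genes are families of near copies, where reads may be placed in more than 1 copy. The same may hold for the cluster of related genes on the X chromosome, so the runs over these families are uncertain.

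At the level of genes, the number of regions with a peak in the gene or within 10 kb was compared for the 8642 protein-coding genes that averaged at least 3 such regions. Limma called 930 genes (10.8%) with more regions in 1398M1 and 1126 (13%) with more in 1399M4 at a Benjamini-Hochberg adjusted p of 0.05. In all, 23.8% of the genes tested were called. At an unadjusted p under 0.05 there were 3049 genes, 1490 and 1559 by direction, and 230 called genes in each direction differed by more than 1 on the log2 scale. Without scaling to equal library totals the calls were 410 and 826, so 33.2% of the calls favored 1398M1 instead of 45.2%, and the median log2 difference of all genes was -0.09 instead of 0.02. With 1 library of 1399M4 left out the split turned, to 662 and 403 without replicate 1 and to 596 and 428 without replicate 2. With the replicate numbers as a block 880 and 1018 genes were called, but with the numbers of 1399M4 crossed, an equally arbitrary labelling, only 10 and 9 were, with 2631 genes at an unadjusted p under 0.05. Each call below is therefore one of this fit, and the p-values measure the spread between libraries of a line, which may be technical only. Most of that spread is borrowed from other genes. Of 33.1 moderated degrees of freedom 2 came from the libraries of the gene itself.

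Of the 12 genes of smallest p with more regions in 1398M1, Sorcs3, Nrxn3, Kirrel3 and Kcnmb2 are known from synapses or neuronal excitability. The smallest p was that of Acss3, a mitochondrial enzyme gene given below with the rest. Kcnip4, a potassium channel subunit gene, led the other direction. Sorcs3, a sorting receptor of the synapse (chr19:48206025-48805505), had 22 and 27 regions in 1398M1 and 4 and 4 in 1399M4. Its log2 difference, 1398M1 minus 1399M4 on the log2 (number plus 0.5) scale used throughout, was 2.58 ± 0.17 (SE, n = 2 and 2; limma adjusted p = 1.13e-12), and 17 of its regions were open in 1398M1 only. Nrxn3, a presynaptic adhesion molecule (chr12:88722701-90334935), had 50 and 57 against 20 and 19 regions (1.54 ± 0.11, limma adjusted p = 2.6e-12) and the most 1398M1-only regions of any gene, 33. Kirrel3 had 29 and 36 against 9 and 4 regions (2.44 ± 0.20, limma adjusted p = 4.49e-11). Kcnmb2, a regulatory subunit of calcium-activated potassium channels, had 16 and 17 against 3 and 3 (2.39 ± 0.19, limma adjusted p = 2.36e-11). In each of these genes the libraries of one line lay well clear of the other, which follows in part from choosing genes by p.

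Acss3, which encodes a mitochondrial acyl-CoA synthetase (chr10:106933514-107123761), had 8 and 7 regions in 1398M1 and none in either 1399M4 library (limma adjusted p = 2.48e-16). No fold is given against a line without a region. Rgs6, a regulator of G protein signaling, had 15 and 17 against 3 and 3 regions. Wwox, an oxidoreductase gene at a common fragile site, had 30 and 40 against 10 and 13, and Dlg2, a postsynaptic scaffold, 30 and 41 against 13 and 13. Atp10b, a lipid flippase gene, had 10 and 11 against 1 and 2, Cep128, a centriole gene, 7 and 7 against 1 and 1, Begain 7 and 6 against 1 and 1, and Lmo3, a LIM-only transcriptional cofactor, 6 and 6 against 1 and 1. All passed the adjusted threshold. Nrxn3, Rgs6, Cep128 and Begain lie on chromosome 12, where 67 (25.1%) of 267 genes tested were called for 1398M1 and 10 (3.75%) for 1399M4. With totals equalized within each chromosome, an alternative chosen after the data were seen, Nrxn3 still differed by 1.24 (limma adjusted p = 4.75e-09).

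In the other direction the leading gene was Kcnip4, a calcium-binding subunit of Kv4 potassium channels (chr5:48389503-49525122). It had 0 and 1 region in 1398M1 and 13 and 15 in 1399M4 (limma adjusted p = 2.6e-12). Etl4, also known as Skt, a gene of intervertebral disc development, had 4 and 5 against 24 and 28 regions (-2.30 ± 0.17, SE, n = 2 and 2; limma adjusted p = 1.18e-11). Camta1, a neuronal transcription activator (chr4:151059523-151861768), had 33 and 33 against 81 and 75 regions (-1.11 ± 0.09, limma adjusted p = 4.11e-11) and the most 1399M4-only regions, 38. Adamtsl1, a matrix protein related to metalloproteases, had 3 and 4 against 18 and 18 (-2.11 ± 0.18, limma adjusted p = 2.65e-10). Again no library of one line reached into the range of the other, and these genes too were chosen by p.

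Macf1 had 15 and 17 regions in 1398M1 and 49 and 53 in 1399M4, and its neighbor Gm31309 had 1 and 1 against 6 and 6. Both lie where the background was raised in 1399M4, by 26.5 and 30.5 times the floor at Gm31309, and neither could be tested once the 1 Mb bins of raised background were left out. The part of that background in their regions was not tested. Cdh11, a mesenchymal cadherin, the collagen gene Col14a1 and BC049352 each had 1 and 1 against 7 and 5 regions. Tmc1, a mechanotransduction channel of hair cells, had 0 and 1 against 8 and 6, Stk32b, a kinase gene, 2 and 3 against 15 and 12, and Ncoa1 1 and 2 against 10 and 7. All of these passed the adjusted threshold. Ncoa1 lies on chromosome 12 and was one of the few genes there with more regions in 1399M4. Without scaling 8 of these 24 genes lost their call, Kirrel3, Atp10b, Wwox, Dlg2, Kcnip4, Tmc1, Stk32b and Ncoa1. Of all 149 genes called under the rule for named genes, those of the lists included, 102 lost it without scaling, 59 of 136 tested with equal numbers of peaks, 74 of 135 with all 14 libraries and 31 to 45 with 1 library left out, where the lone library is assumed to vary like the other line.

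**Figure D4:**
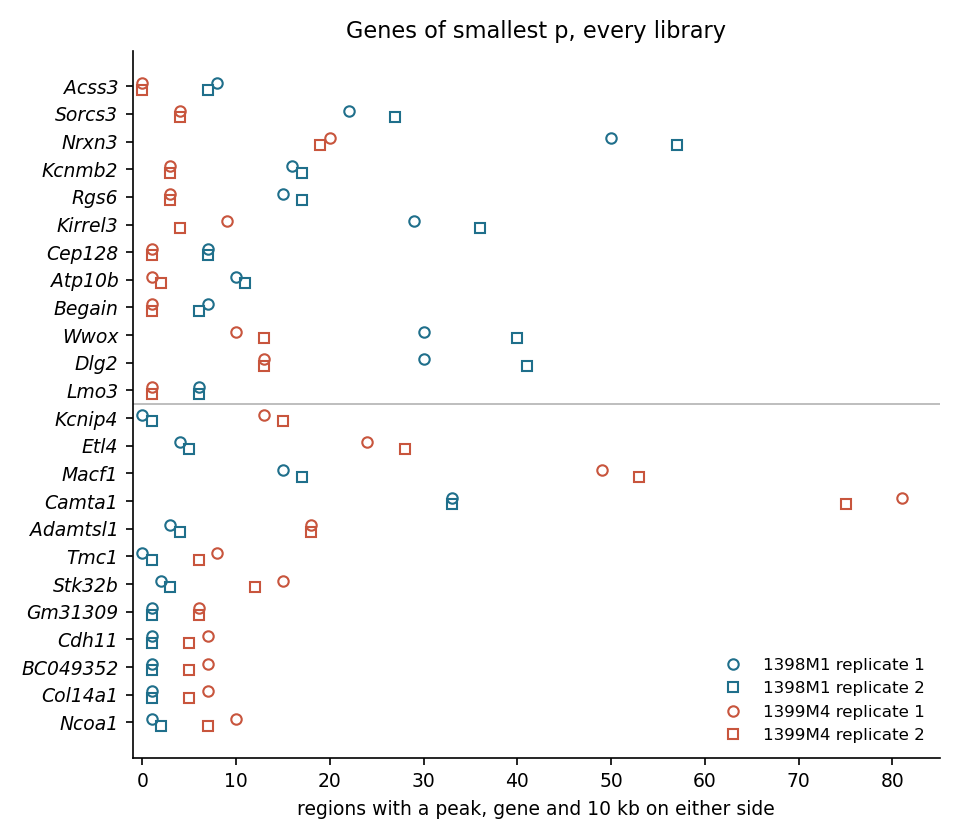
Number of regions with a peak in the gene or within 10 kb (x axis) in each of the 4 libraries, for the 12 genes of smallest p per direction (y axis; above the line more regions in 1398M1, below it more in 1399M4). Circles are replicate 1 and squares replicate 2; the lines do not overlap in any of the 24 genes, which were chosen by p.

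Some of the genes with the most line-only regions, chosen by that number, carried both kinds, and a total does not show them. Over all classed regions 24.3% were open in 1398M1 only and 25.6% in 1399M4 only. Tenm4, a synaptic adhesion teneurin, had 22 regions open in 1398M1 only and 16 open in 1399M4 only, with totals of 48 and 48 against 43 and 40 (0.32 ± 0.09, limma adjusted p = 0.0108). Cdh13, an atypical cadherin, had 20 and 17 such regions and totals of 40 and 49 against 49 and 41 (0.10 ± 0.10, limma adjusted p = 0.52). Rbfox1, a neuronal splicing factor, had 15 and 22 and totals of 37 and 51 against 51 and 52 (-0.13 ± 0.10, limma adjusted p = 0.385). Ptprt, a receptor phosphatase, had 21 and 13 (0.34 ± 0.10, limma adjusted p = 0.00899). Macrod2, an ADP-ribose hydrolase gene, had 25 and 9, Ptprn2, a granule membrane phosphatase gene on chromosome 12, 24 and 8, and Auts2, a regulator of neuronal migration, 21 and 8. In the other direction stood Rere, a transcriptional corepressor, with 0 and 20.

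The genes engineered in the genotype showed open starts in all 4 libraries. Nfib itself had 11 and 12 regions in 1398M1 and 12 and 12 in 1399M4 (0.05 ± 0.16, limma adjusted p = 0.82), with 3 regions open in each line only, and the sign of this difference turned without scaling (-0.06). Peak lists do not show deleted sequence, and the labels do not name the deleted exons, so this does not check the alleles. Rb1 had 4 and 7 against 10 and 9 regions (-0.67 ± 0.20, limma adjusted p = 0.0122). Without scaling the difference was -0.78 (limma adjusted p = 0.318), and with totals equalized within chromosomes -0.63 (limma adjusted p = 0.0226). Rbl2 had 3 and 5 against 4 and 4 regions, and Trp53 2 and 3 against 2 and 2, too few to test. Mycl had 5 and 5 against 4 and 4 regions (0.39 ± 0.20, limma adjusted p = 0.149). Of the NFI and MYC family genes tested, Nfia alone was called, with 25 and 28 against 13 and 12 regions (1.17 ± 0.14, limma adjusted p = 1.19e-07).

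Gene lists were read against the shares called among all 8642 genes, 10.8% for 1398M1 and 13% for 1399M4. Of the 374 tested genes on any list 84 (22.5%) had more regions in 1398M1 and 41 (11.0%) more in 1399M4. The share called for 1398M1 rose with the number of regions, from 8.47% of genes averaging 3 to 5 regions to 27.1% of those averaging 20 or more. Among genes averaging at least 10 regions, 34 (33.3%) of 102 list genes were called for 1398M1 and 12 (11.8%) for 1399M4, beside 145 (20%) and 98 (13.5%) of 724 other genes. Without scaling to equal totals the list genes were called 28 times in each direction, and with equal numbers of peaks 48 and 28 times. Leaving out 1 library lowered the 1399M4 calls to 16 and 21 (replicates 1 and 2 of 1399M4) and to 24 (replicate 1 of 1398M1).

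Synaptic adhesion genes held 3.8 to 5.5 times the regions of an average gene, and neuronal migration and projection genes 3.4 to 4.7 times. Of all tested genes averaging 10 to 20 regions 20.3% were called for 1398M1, and the list shares are not matched for region number. Of 18 synaptic adhesion genes tested 7 (38.9%) were called for 1398M1 and 1 (5.56%) for 1399M4, with a median log2 difference of 0.22 beside 0.02 over all genes. They included Nrxn3, Nrxn2 (13 and 12 against 9 and 7 regions), Ptprd, a presynaptic phosphatase (12 and 20 against 5 and 5), and Clstn2, a calsyntenin (28 and 29 against 15 and 15). Of 17 neuronal migration and projection genes 7 (41.2%) were called for 1398M1 and 2 (11.8%) for 1399M4 (median 0.29). Gap43, a growth cone protein, had 5 and 6 regions in 1398M1 and 1 and 0 in 1399M4 (limma adjusted p = 1.2e-09), and Dab1, the adaptor of reelin signaling, 39 and 44 against 26 and 32. Map2, a dendritic microtubule protein (6 and 9 against 16 and 13), and Ndel1, a dynein regulator (2 and 2 against 3 and 5), went the other way.

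Of 33 axon guidance genes 11 (33.3%) were called for 1398M1 and 5 (15.2%) for 1399M4 (median 0.26), and members of the same families were called in opposite directions. The semaphorins Sema6d (32 and 34 against 19 and 13) and Sema3a (4 and 8 against 1 and 2) had more regions in 1398M1, and Sema5a (5 and 9 against 20 and 18) fewer. The ephrin receptor genes split likewise, Ephb2 (27 and 26 against 21 and 20) and Epha6 (4 and 7 against 2 and 3) against Epha4 (1 and 1 against 5 and 5) and Epha7 (2 and 2 against 5 and 4). Robo1 had 28 and 26 against 25 and 19 regions and Robo2 11 and 25 against 24 and 31, where the libraries of the lines overlap. Of 23 glutamate and GABA receptor genes 7 (30.4%) were called for 1398M1 and 2 (8.70%) for 1399M4, with the highest median of the lists with 10 or more tested genes, 0.35. The kainate receptor subunit Grik3 had 9 and 9 against 1 and 2 regions, and the NMDA receptor subunit Grin2a 11 and 16 against 6 and 4. The GABA receptor subunits Gabrb1 (3 and 4 against 9 and 7) and Gabrg3 (1 and 3 against 4 and 5) had more in 1399M4. Voltage-gated channel genes were called 5 and 4 times of 29 (median 0.04). Kcnd3 had 20 and 20 against 9 and 10 regions and Cacna1d 7 and 7 against 17 and 17.

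**Figure D5:**
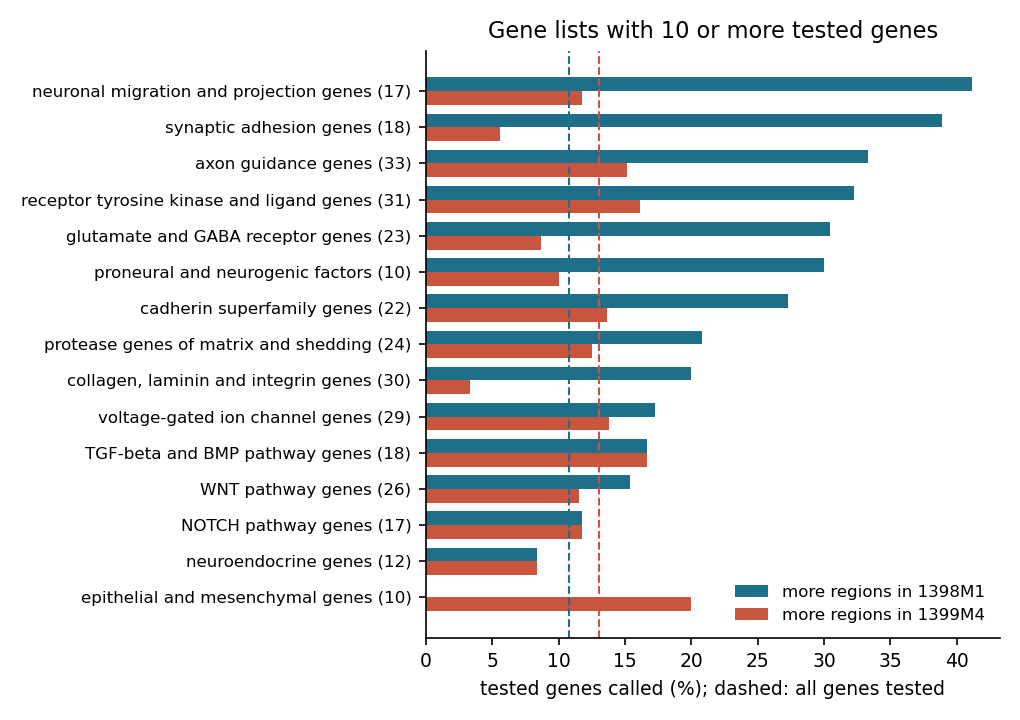
Share of tested genes called (x axis, %) with more regions in 1398M1 (blue) and in 1399M4 (red) for each gene list with 10 or more tested genes, whose number stands in brackets; dashed lines mark all 8642 genes (10.8% and 13%). Neuronal migration and projection genes reach 41.2% for 1398M1, and epithelial and mesenchymal genes are called for 1399M4 only. Lists are not matched to all genes for the number of regions per gene.

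Receptor tyrosine kinase and ligand genes were called in 10 (32.3%) of 31 for 1398M1 and 5 (16.1%) for 1399M4 (median 0.10, and 0.00 without scaling). The neurotrophin receptor genes Ntrk2 (13 and 15 against 6 and 8) and Ntrk3 (8 and 9 against 4 and 2), the neuregulin receptor gene Erbb4 (9 and 17 against 4 and 2) and its ligand gene Nrg1 (18 and 20 against 12 and 12) had more regions in 1398M1. In 1399M4 Erbb2 (4 and 4 against 7 and 7), Kit, the stem cell factor receptor (3 and 4 against 6 and 6), Ret, the receptor of GDNF ligands (3 and 3 against 7 and 5), and Fgfr1 (2 and 2 against 4 and 4) had more.

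Transcription factor and signaling lists gave smaller counts. Of 10 proneural and neurogenic factors Ebf3 (7 and 10 against 4 and 2), Myt1l on chromosome 12 (26 and 27 against 17 and 19) and Onecut2 (6 and 6 against 2 and 2) were called for 1398M1, and Prox1 (6 and 6 against 11 and 9) for 1399M4. Of 12 neuroendocrine genes tested Snap25, a vesicle fusion protein, was called for 1398M1 (6 and 6 against 4 and 3) and Ncam1, a neural adhesion molecule, for 1399M4 (7 and 13 against 21 and 18). Of 8 YAP, TEAD and REST genes 3 were called for 1398M1 and none for 1399M4. These were Wwtr1, which encodes the YAP paralog TAZ (5 and 6 against 2 and 2), Ccn1, a matrix-associated YAP target (4 and 4 against 2 and 2), and Amotl1, an angiomotin (12 and 12 against 7 and 7). In the NOTCH list 2 of 17 were called each way, the ligand genes Jag1 (5 and 5 against 2 and 2) and Dner (21 and 23 against 11 and 10) for 1398M1, and the target gene Hes1 (3 and 3 against 5 and 5) and the coactivator gene Maml2 (5 and 8 against 16 and 10) for 1399M4. Background at Hes1 was 12.8 and 14.5 times the floor in 1398M1 and 12.4 and 12.2 times in 1399M4. At Jag1 it was 1.2 and 1.4 against 7.6 and 5.4 times, and at Onecut2 1.5 and 1.4 against 15.3 and 11.6 times, and its part in these 3 genes was not tested. The values at Jag1 and Onecut2 in 1399M4 rest on the summits of 2 regions per library. None of the 3 genes lay in a 1 Mb bin of raised background.

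WNT genes were called 4 and 3 times of 26, Lef1 (6 and 5 against 3 and 2) and Ror1 (9 and 9 against 3 and 3) among those for 1398M1 and Lrp5 (7 and 11 against 17 and 16) and Wnt7b (2 and 3 against 6 and 4) among those for 1399M4. TGF-beta and BMP genes were called 3 times each of 18. The BMP receptor genes Bmpr1a (2 and 4 against 7 and 6), Bmpr1b (10 and 13 against 17 and 17) and Bmpr2 (2 and 3 against 5 and 5) all had more regions in 1399M4, whereas the ligand gene Bmp7, the effector gene Smad3 and the target gene Id1 had more in 1398M1. Of 8 tuft-like state genes Dclk1, a microtubule-associated kinase also known in neurons, was called for 1398M1 (19 and 19 against 6 and 7).

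Of 22 cadherin superfamily genes 6 (27.3%) were called for 1398M1 and 3 (13.6%) for 1399M4 (median 0.10, and -0.01 without scaling), for example Cdh18 (14 and 16 against 7 and 7) and Fat4 (6 and 7 against 3 and 2) against Cdh11 and the planar polarity gene Celsr1 (12 and 9 against 18 and 17). Of 30 collagen, laminin and integrin genes 6 (20%) were called for 1398M1, Itga2 (5 and 5 against 2 and 2) and Itgb5 (13 and 13 against 8 and 9) among them, and 1 (3.33%), Col14a1, for 1399M4. Among 24 protease genes 5 (20.8%) and 3 (12.5%) were called. Of 10 epithelial and mesenchymal genes none was called for 1398M1 and 2 (20%) were called for 1399M4, the epithelial splicing factor gene Esrp1 (2 and 2 against 5 and 5) and the epithelial transcription factor gene Grhl2 (3 and 6 against 9 and 8). The HOX list was called 0 and 1 time of 7 (Hoxb2). MHC class I presentation genes were called 0 times of 7, as were the 3 hepatocyte and 4 lymphocyte and myeloid markers tested. Tek, an endothelial receptor, was the 1 of 3 fibroblast and endothelial markers called (3 and 8 against 3 and 3). Replicate 1 of 1398M1 there equaled both 1399M4 libraries, and no region of Tek was open in 1 line only. Foxj1, a factor of ciliated cells (2 and 2 against 5 and 4), and Muc5b, an airway mucin (4 and 5 against 3 and 2), were called in opposite directions among 5 lung epithelial markers.

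Gene starts separated the lines far less than distal regions did. Of 21631 protein-coding genes 12965 had a peak within 1 kb of a start in all 4 libraries, 494 (2.28%) in both libraries of 1398M1 only and 337 (1.56%) in both of 1399M4 only. With 50% of a merged region required to be covered the 1398M1-only count was 789, without replicate 1 of 1399M4 it was 802, and without replicate 2 of 1399M4 the 1399M4-only count was 545. The 1398M1-only starts were open in 1399P1 for 70.6% of the genes and in N2N1G for 67.4%, and 21 (4.25%) had no peak in any of the 10 other libraries. For 1399M4 the shares were 51.6%, 24.9% and 56 genes (16.6%). Of the 208 genes with a 1398M1-only start that could be tested, 70 also had more regions in 1398M1 and 5 more in 1399M4, and of 115 with a 1399M4-only start 2 and 41. Starts and region numbers share peaks, so this is no independent support.

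Of the 578 list genes 21 (3.63%) had a start open in 1398M1 only and 9 (1.56%) one open in 1399M4 only, beside 2.28% and 1.56% of all genes. The first included the matrix protease genes Mmp2 and Mmp14 and their inhibitor gene Timp3, the growth factor genes Hgf and Igf2, the receptor subunit genes Gria3 and Grik3, Gap43, and the basement membrane and fibrillar genes Lama4 and Col5a1. Hgf had 3 and 4 regions in 1398M1 and 0 and 0 in 1399M4, and Gria3 5 and 5 against 0 and 1, both too few to test. Mmp14 had 1 region open in each line only, and 3 and 3 against 4 and 3 regions in all. The second group held the tight junction gene Cldn4, the WNT ligand genes Wnt2 and Wnt7b, the protease genes Adam8 and Adamts9, Cdh11, Hoxc4, Il25 and Hnf4a, a transcription factor gene of liver and gut. Hnf4a had 5 and 5 against 6 and 5 regions in all (-0.01 ± 0.20, limma adjusted p = 0.954), and the start of Alb was closed in all 4 libraries.

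The sequences before starts that were open in 1 line only are shown for 5 called genes, 3 of 1398M1 and 2 of 1399M4 to show the letters at starts that had a peak in one metastasis and not in the other. They are the 250 bases before 1 RefSeq start of each gene (GRCm38.p6), 5′ to 3′ on the strand of the gene, and capitals mark matches to the motifs listed next. For 1398M1 they are Sorcs3 (chr19:48205775-48206024, plus strand), Kcnmb2 (chr3:31902453-31902702, plus strand) and Begain (chr12:109068243-109068492, minus strand), and for 1399M4 Kcnip4 (chr5:49285660-49285909, minus strand) and Adam8 (chr7:139992563-139992812, minus strand). The open region at Sorcs3 (chr19:48206040-48206890) lies after the start, so the bases shown are outside it. The starts used for Kcnmb2, Kcnip4 and Adam8 lie inside the annotated gene.
Sorcs3: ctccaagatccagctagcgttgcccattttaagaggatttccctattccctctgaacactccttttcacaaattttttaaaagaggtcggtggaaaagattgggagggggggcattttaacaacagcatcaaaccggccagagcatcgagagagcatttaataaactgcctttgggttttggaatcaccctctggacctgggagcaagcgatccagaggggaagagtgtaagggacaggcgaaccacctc
Kcnmb2: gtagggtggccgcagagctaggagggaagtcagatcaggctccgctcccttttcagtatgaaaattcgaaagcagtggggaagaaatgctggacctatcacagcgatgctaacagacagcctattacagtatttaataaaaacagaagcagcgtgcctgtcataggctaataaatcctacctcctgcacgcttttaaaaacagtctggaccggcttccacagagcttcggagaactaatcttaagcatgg
Begain: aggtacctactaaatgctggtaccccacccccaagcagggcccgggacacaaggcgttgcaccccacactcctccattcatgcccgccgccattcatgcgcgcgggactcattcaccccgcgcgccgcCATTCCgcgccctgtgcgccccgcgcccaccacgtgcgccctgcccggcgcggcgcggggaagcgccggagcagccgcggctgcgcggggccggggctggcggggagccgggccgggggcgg
Kcnip4: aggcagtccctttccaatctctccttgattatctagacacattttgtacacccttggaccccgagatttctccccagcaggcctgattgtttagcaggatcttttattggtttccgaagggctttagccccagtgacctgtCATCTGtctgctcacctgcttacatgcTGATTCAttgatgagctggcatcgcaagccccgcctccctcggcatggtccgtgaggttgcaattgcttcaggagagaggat
Adam8: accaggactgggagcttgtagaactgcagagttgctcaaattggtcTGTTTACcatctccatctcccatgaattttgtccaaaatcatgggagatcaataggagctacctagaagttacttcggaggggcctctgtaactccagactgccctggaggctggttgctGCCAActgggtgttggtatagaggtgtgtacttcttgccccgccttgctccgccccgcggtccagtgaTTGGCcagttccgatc

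Motifs were searched on both strands. They were an arm of the NFI site, TTGGC, the full NFI site, which contains that arm, the octamer motif of POU factors, and the E-box CAGCTG. A second E-box known from neurogenic factors was CAGATG. The AP-1 motif searched was TGANTCA. For forkhead factors it was TGTTTAC, and for TEAD factors the search used GGAATG. The RUNX motif was TGTGGT. For SOX factors the letters were AACAAAG, and those for GATA factors were GATAAG. Sorcs3 and Kcnmb2 had no match and Begain 1, a TEAD match. Kcnip4 had a CAGATG and an AP-1 match, and Adam8 a FOX match and 2 NFI arms. The Begain sequence was the richest in CpG, with 34 CpG and 76.0% GC, against 6 to 8 CpG and 47.2% to 52.8% GC in the other 4. A match describes letters and is no evidence of binding, and its absence says nothing about a factor.

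Starts open in 1 line only were poorer in CpG than starts open in both. Over windows of 300 bases, from 250 before to 50 after a start, the median was 8 CpG at 542 windows of the 1398M1-only kind, 5 at 307 of the 1399M4-only kind, 22 at 12408 open in both lines and 3 at 6679 open in neither. The NFI arm was in 49.4% of the 1398M1-only and 44.3% of the 1399M4-only windows, against 48.2% of all 21045 windows. CAGCTG, the E-box of many proneural factors, was in 23.2% and 23.5%, against 15.7% of all windows. It was in 14.5% of windows open in both lines and 16.2% of those open in neither. AP-1 matches were in 11.4% and 9.77%, against 7.04% of all windows and 11.9% of those open in neither line. FOX matches were in 3.69% of the 1398M1-only and 6.19% of the 1399M4-only windows. The FOX share was 3.03% of all windows and 4.21% of those open in neither line. GATA matches were in 5.54% and 10.1%, against 6.95% of all windows and 12.0% of those open in neither line. These shares are descriptions without a test, and base composition moves with them.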

How the data were processed

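ATAC-seq peak lists of 4 libraries, 2 each of lines 1398M1 and 1399M4, were analysed, and the other 10 libraries served for comparison. The submitters' processing notes name MACS2, SAMtools, Picard, Bowtie2 and cutadapt 2.10, and the builds mm10 and GRCm38. Tool settings, including a shift towards insertion sites, were not given in the sources used here. Each list was called per library, and the authors deposited for each summit its fold enrichment, a ratio to local background, its -log10 p-value and its -log10 q-value. The summit offset and the positions, deposited by the authors, were used as they stand, and the deposited score was not used. Fold values were ranked within a library only. Fold and p together fix the pileup and the local background of a summit under the Poisson model of the caller; all pileups solved were whole within a tolerance of 0.01 in -log10 p. Local background of a bin of 1 Mb or a gene was the 10th percentile of its summits, and a bin was raised above 2 times the floor. Peaks were merged and classed as described, and protein-coding genes came from RefSeq (GRCm38.p6), which gave starts for 17274 of 21631 genes; the gene ends were used for the rest.

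The number of regions per gene within 10 kb was scaled to equal library totals and tested as log2(number + 0.5) with limma 3.58.1 (R 4.3.3; two-sided, trended empirical Bayes, Benjamini-Hochberg). Its moderated degrees of freedom were 33.1, of which 2 came from the libraries of a gene. Log2 differences understate changes of genes with few regions. Genes were named as the 12 of smallest p per direction, the 6 per line with the most line-only regions, list genes called or with a line-only start, and the targeted genes with Mycl, leaving out a gene that shared over 50% of its regions with one already named; regions as the 3 per line of highest mean fold percentile, chromosome 18 left out. The members and the 25 lists were chosen with earlier results of these data known. Methods were tested on simulated data. Alternatives covered peak thresholds, overlap, filters, scaling, single libraries, a replicate block and all 14 libraries; chromosome 12 left out, totals equalized within chromosomes and crossed replicate numbers were added after the data were seen. Some genes of the lists enter the counts but are not reported here by name.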

Additional observations from a re-analysis of the deposited data

Results flagged for a closer look

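Peaks outside the chromosomes compared were present in every library and enter none of the comparisons. On the Y chromosome the lists held 33 and 31 peaks in the libraries of 1398M1 and 39 and 51 in those of 1399M4. On the mitochondrial genome they held 7 and 6 peaks in 1398M1 and 5 and 10 in 1399M4.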

How the results depend on the processing

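Counts of calls differed between the alternatives, while direction mostly held. The moderated degrees of freedom of limma ranged from 2.4 without scaling to 15664 with 50% of a region covered. Of the 2056 genes called, 520 kept their call without scaling, 920 of 1877 tested with equal numbers of peaks, and 934 to 1150 with 1 library left out; 8 had the other sign at a -log10 q of at least 5, 3 with gene bodies only, 1 with equal numbers of peaks and 1 without replicate 1 of 1398M1. Genes at an unadjusted p under 0.05 numbered 3049, and 1676 to 5497 under the alternatives. The cause of these changes was not tested. Sites near the depth limit of a library can lack a peak in it.

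Leaving out 1 library gave 19169 to 28296 regions open in 1398M1 only and 20563 to 29255 in 1399M4 only, 548 to 802 and 407 to 545 gene starts, 531 to 662 and 403 to 789 genes called, and 59 to 69 and 16 to 33 list genes. The mean Jaccard index of replicates, 0.638, was 0.668 at a -log10 q of at least 5 and 0.660 with equal numbers of peaks. Gene calls were 569 and 636 with gene bodies only, 410 and 826 without scaling and 372 and 247 with all 14 libraries in the fit. Requiring 50% of a region gave 789 starts for 1398M1. List genes called for 1398M1 were 48 with equal numbers of peaks, 28 without scaling and 39 with all 14 libraries, and for 1399M4 27 with gene bodies only and 5 with all 14.

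The replicate numbers are shared only as labels: the correlation of replicate deviations between the lines was -0.01 across 8642 genes. With a replicate block 880 and 1018 genes were called, 1819 of them as before. With the numbers of 1399M4 crossed in the replicate block, an alternative chosen after seeing the data, limma called 10 and 9 genes, 0 and 1 of them list genes, at 3.2 moderated degrees of freedom and with 2631 genes at an unadjusted p under 0.05. Of the 24 genes of smallest p 4 kept their call there.

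Some differences changed sign, all of genes not called in the report. At a -log10 q of at least 5 these were Nfib (-0.25), Rbl2 (-0.26), Cdh12 (-0.37), Scn1a (-0.040) and Hnf4a (0.46, limma adjusted p = 0.0453). With equal numbers of peaks Rbl2 was -0.32 (limma adjusted p = 0.0345) and Hnf4a 0.23, and with 50% of a region covered Cdh12 was -0.015 and Hnf4a 0.21. Without scaling Cdh13 was -0.018, Nfib -0.060 and Rbl2 -0.037, and with totals equalized within chromosomes Nfib was -0.0039. With 1 library left out Rbfox1 ranged from -0.30 to 0.062, Rbl2 from -0.21 to 0.33, Hnf4a from -0.090 to 0.070, Lama4 from -0.22 to 0.15 and Mmp14 from -0.22 to 0.066. The median of YAP, TEAD and REST genes was -0.061 without a filter on low numbers.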

Other observations

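Values of the leading genes in the other lines, with regions counted after merging all 14 libraries, showed how each metastasis stood among them. Adamtsl1 had 3 and 4 regions in 1398M1 and 18 and 18 in 1399M4. It had 34 to 40 in the LN lines, 22 and 23 in 1373M1, 17 and 11 in 1399P1, and 4 and 3 in 1398P2, whose numbers were those of 1398M1. Kcnip4 had 0 and 1 in 1398M1 and 12 and 14 in 1399M4, beside 11 to 14 in the LN lines, 11 and 4 in 1398P2, 6 and 6 in 1399P1 and 4 and 2 in 1373M1, so 1398M1 was the lowest line. Tmc1 was at 0 and 1 in 1398M1 and 7 and 5 in 1399M4, at 0 in all libraries of 1373M1 and 1398P2, and at 3 or 4 in the other 3 lines.

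In other genes 1399M4 lay at the edge. Kirrel3 had 9 and 4 regions in 1399M4 and 22 to 36 in 11 of the 12 other libraries, the exception being the thin replicate 2 of 1398P2 with 4. Nrxn3 had 20 and 19 in 1399M4 and 35 to 56 in the same 11, and Camta1 had 79 and 73 in 1399M4 and 32 to 66 in those 11. Macf1 had 48 and 52 regions in 1399M4 and 55 and 46 in 1373M1, against 15 to 22 in the other 9. Sorcs3 had 4 and 4 in 1399M4 and 4 and 3 in 1373M1, against 11 to 25 in the other 9. In the 1 Mb bin from 123 to 124 Mb of chromosome 4, which holds Macf1, the local background was 27.1 and 34.5 times the floor in 1373M1 and 6.1 and 4.7 times in 1399M4, and 1.1 to 3.2 times in the other libraries; its part in the likeness of these lines at Macf1 was not tested. These are values without a test.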
